A study of Mus musculus with 2 samples.

Results

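The DEAD and DEAH box RNA helicases, taken as the Ddx and Dhx genes apart, were followed on 2 single-colour microarrays of NIH3T3, an established line of mouse embryonic fibroblasts. Members were the non-control probes whose gene name in the scanner files began with Ddx or Dhx and a digit, which gave 96 of 41174 probes, 66 for 36 Ddx genes and 30 for 16 Dhx genes. The choice used gene names and no measured value, although the family was proposed with earlier results of these data known. One array held RNA from NIH3T3 cells carrying the pcDNA3.1-MARVELD1 plasmid. The other held RNA from NIH3T3 cells carrying the empty pcDNA3.1 vector. Cells of both kinds were selected with G418, the drug to which the plasmid gives resistance, and whether a line was 1 clone or a pool is not given in the sources used here. The question was how MARVELD1, a MARVEL domain protein, influences gene expression in these cells.

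DEAD and DEAH box proteins use ATP to unwind or remodel RNA and RNA-protein complexes, and are named after the amino acids of a conserved motif that takes part in ATP hydrolysis. DEAD box members mostly separate short duplexes locally, while DEAH box members move along a strand. Between them they act in ribosome assembly in the nucleolus, in each step of splicing, in mRNA export, translation initiation and decay, and in the sensing of viral RNA.

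Each group had 1 array and no replicate, so the differences carry no test and no error between samples, and every direction rests on the array label. Intensities below are the scanner program's processed signals. Each log2 difference is the array labelled MARVELD1 minus the empty vector array, after the 75th percentile of each array (703.3 and 768.1) had been subtracted on the log2 scale. The share of spots well above background was 69.0% for MARVELD1 and 68.7% for empty vector. Marveld1 itself read 6293 on the array labelled MARVELD1 against 8725 on the empty vector array by its brighter probe, a log2 difference of -0.34. Its dimmer probe read 126.4 against 184.4 (-0.42). The label was thus not supported by either probe, and whether they can read the plasmid's insert is not known. All 9 fibroblast markers were measured, from 1683 to 233931 on the MARVELD1 array and from 2680 to 214601 on the empty vector array. At 2-fold, 0 of them were higher, beside 5.39% of all genes, and 3 were lower (Pdgfrb, Col3a1 and Fn1), beside 3.53%. Their median log2 difference was -0.57, beside 0.19 for all genes. The part of these marker differences in the helicase differences was not tested. The epithelial markers Epcam and Cdh1 were not well above background on either array. The 4 macrophage markers read 55.1 to 502.1 on the MARVELD1 array and 44.2 to 670.5 on the empty vector array. Of the endothelial markers, Cdh5 read 708.5 on the MARVELD1 array and 1289 on the empty vector array (-0.74). Pecam1 was well above background on the MARVELD1 array only, at 43.4 against 32.1. None of the helicase probes was printed more than once. Among probes of other genes printed at least 5 times, the technical SD of a difference between single spots was 0.17 at intensities of 1000 and over, 0.34 from 200 to 1000 and 0.61 under 200, and these SDs cover spot noise only.

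Probe sequences of 60 bases are shown first for Ddx21, Dhx33, Ddx1 and Dhx36, because probes of the same gene gave different answers. Coordinates are taken from the files (mouse build mm9). Without an mm9 annotation, the exon or untranslated region holding each probe was not determined. The probes of Ddx21, a nucleolar helicase of ribosomal RNA transcription and processing, are on the minus strand at chr10:62043317-62043376, chr10:62050774-62050833 and chr10:62061509-62061568, from the 3′ end of the gene towards its 5′ end.
Ddx21 3′ probe: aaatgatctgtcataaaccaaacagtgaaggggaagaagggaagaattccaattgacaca
Ddx21 middle probe: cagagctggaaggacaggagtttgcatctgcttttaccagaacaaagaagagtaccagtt
Ddx21 5′ probe: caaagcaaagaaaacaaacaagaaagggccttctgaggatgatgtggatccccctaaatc
The probes of Dhx33, a DEAH helicase of ribosomal RNA synthesis, are on the minus strand at chr11:70797780-70797839, chr11:70800347-70800406 and chr11:70813450-70813509, again from the 3′ end.
Dhx33 3′ probe: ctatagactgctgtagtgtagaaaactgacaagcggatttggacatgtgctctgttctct
Dhx33 middle probe: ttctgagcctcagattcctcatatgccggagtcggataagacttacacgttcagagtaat
Dhx33 5′ probe: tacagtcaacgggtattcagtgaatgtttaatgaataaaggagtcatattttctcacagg
Ddx1 and Dhx36 each had probes past 1.5-fold in opposite directions. The Ddx1 probes lie on the minus strand within chr12:13227617-13230518 and chr12:13252512-13252847, spans longer than the probe itself. The Dhx36 probes are on the minus strand at chr3:62274325-62274384, chr3:62297755-62297814 and chr3:62302334-62302393.
Ddx1 3′ probe: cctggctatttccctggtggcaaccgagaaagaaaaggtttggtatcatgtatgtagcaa
Ddx1 5′ probe: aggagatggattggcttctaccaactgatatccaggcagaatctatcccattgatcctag
Dhx36 3′ probe: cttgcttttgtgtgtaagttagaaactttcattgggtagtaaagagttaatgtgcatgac
Dhx36 middle probe: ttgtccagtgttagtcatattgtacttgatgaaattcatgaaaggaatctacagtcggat
Dhx36 5′ probe: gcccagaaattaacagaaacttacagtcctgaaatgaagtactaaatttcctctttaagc

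Of the 52 genes, 48 were well above background on at least 1 array by the probe that represented them, which is the gene's brightest by its mean log2 intensity on the 2 arrays. These were 32 of 36 Ddx genes and all 16 Dhx genes. Of the 48, 46 were measured on both arrays, and Ddx11 and Ddx58 on 1 array only. The spliceosomal helicase gene Ddx23, the Y-linked Ddx3y, the germ cell gene Ddx4 and the interferon-inducible Ddx60 were not well above background on either array by any probe. The probes of Ddx23 read 9.17 and 8.74 on the MARVELD1 array and 9.08 and 8.24 on the empty vector array. Those of Ddx3y read 8.55 and 8.19 on the MARVELD1 array and 8.08 and 7.98 on the empty vector array.

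By their medians, the Ddx genes lay higher on the array labelled MARVELD1 than genes in general, and the Dhx genes by less. The median log2 difference was 0.42 for 32 Ddx genes (interquartile range 0.19 to 0.69) and 0.24 for 16 Dhx genes (0.11 to 0.63), beside 0.19 for all 16498 genes with a difference. Of the 48 helicase genes, 40 differed upward, beside 65.5% of all genes, and 34 lay above the median of all genes. Differences were mostly small: 4 helicase genes were 2-fold or more higher, beside 5.39% of 16526 genes, and 1 was 2-fold or more lower, beside 3.53%. At 1.5-fold, 17 were higher, beside 19.4% of all genes, and 2 were lower, beside 8.97%. By family, 11 of 32 Ddx genes (34.4%) and 6 of 16 Dhx genes (37.5%) were higher by 1.5-fold, and 1 of each family was lower. The Ddx genes were thus ahead by the median and not by this share. At 3-fold, 0 were higher and 0 lower, beside 1.21% and 1.31% of all genes. The split at 2-fold depends on scaling. With quantile normalization 1 helicase gene was higher, beside 4.03% of all genes, and 1 lower, beside 4.26%. After loess the counts were also 1 and 1, beside 3.67% and 4.58%. Scaling to the array median moved the median of all genes to 0.08, and loess moved it to 0.04, so the family medians are also given relative to it. On that scale the Ddx median stood between 0.13 and 0.24 higher and the Dhx median between 0.05 and 0.18 higher over the 10 settings tried, as the plot of medians by processing setting shows.

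**Figure D1:**
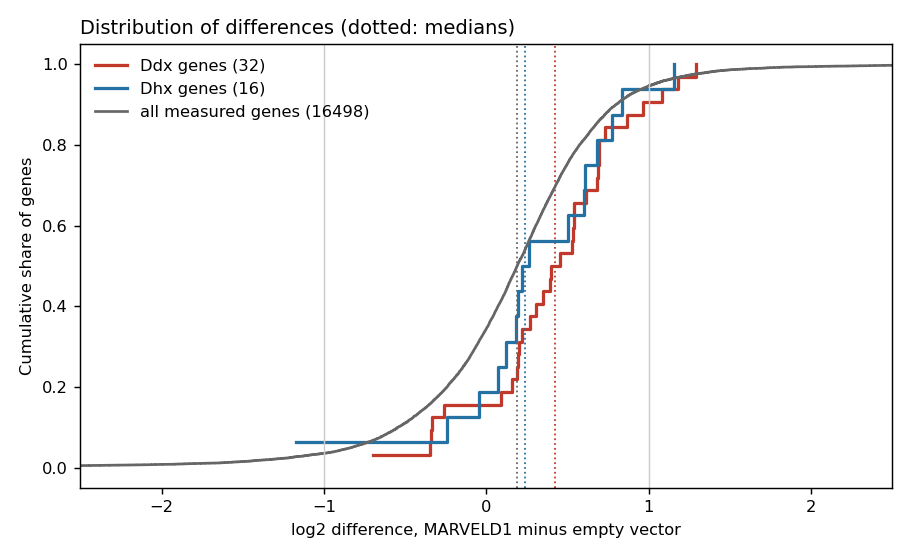
Cumulative share of genes (y axis) by log2 difference, MARVELD1 minus empty vector (x axis), for 32 Ddx genes, 16 Dhx genes and all 16498 measured genes, with dotted lines at the medians of 0.42, 0.24 and 0.19 and grey lines at 2-fold. Both family curves lie to the right of all genes over most of the range, the Dhx curve closest to it around its median and crossing it near either end. Genes beyond 2.5 on either side are outside the frame.

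**Figure D2:**
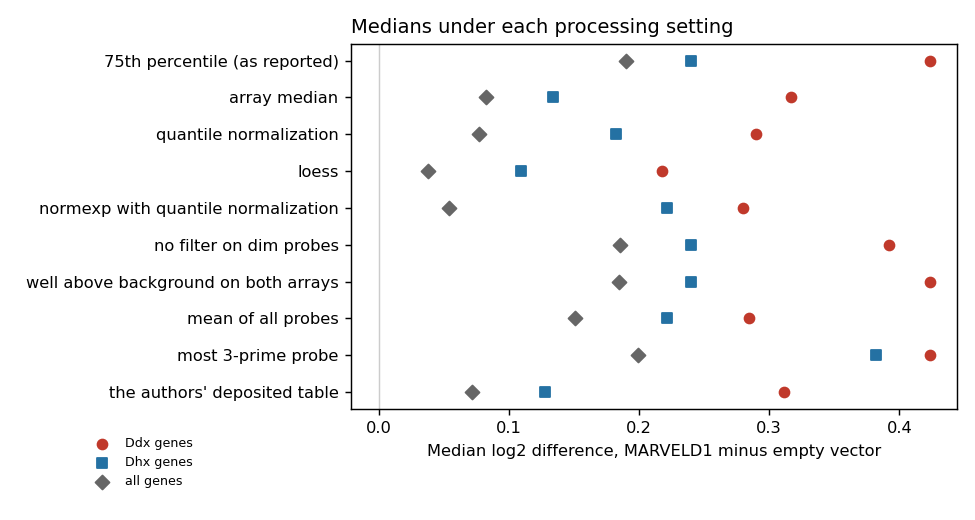
Median log2 difference (x axis, MARVELD1 minus empty vector) of Ddx genes (circles), Dhx genes (squares) and all genes (diamonds) under the 10 processing settings. The order Ddx, Dhx, all genes is the same in each, while the medians themselves move with the scaling.

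Helicases of ribosome assembly held 3 of the 4 helicase genes past 2-fold higher and the 1 past 2-fold lower. Of 16 such genes, all measured, 9 were higher by 1.5-fold or more, 3 of these past 2-fold, and 2 were lower by 1.5-fold or more, 1 of these past 2-fold, with a median log2 difference of 0.65. Of all genes, 19.4% were higher and 8.97% lower by 1.5-fold, and 5.39% and 3.53% by 2-fold. The genes of the list work in the nucleolus on the precursors of the small and large ribosomal subunits. Ddx21 read 10344 on the array labelled MARVELD1 and 4984 on the empty vector array by the 3′ probe printed above, a log2 difference of 1.18, or 2.27-fold higher. Dhx33 read 8070 and 3958 by its 3′ probe, a difference of 1.15, or 2.23-fold. Ddx31 (probe at chr2:28760618-28760677, plus strand) read 3860 on the MARVELD1 array and 1993.8 on the empty vector array, a difference of 1.08, or 2.11-fold. These 3 differences are several times the spot SD of 0.17 at such intensities, but all 3 genes were just under 2-fold with quantile normalization (0.96, 0.96 and 0.95, in the same order) and after loess (0.93, 0.91 and 0.90).

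Below those 3, a run of large-subunit and small-subunit factors lay close together. Ddx27 had 3107 on the MARVELD1 array against 1859.8 on the empty vector array (log2 difference 0.87), and its second, dimmer probe gave 0.48. Ddx55 read 770.3 and 519.2 (0.70), and Ddx51 3216 and 2170.2 (0.69). Ddx54 read 14540 on the MARVELD1 array against 9865 on the empty vector array (0.69). Neighbours from Ddx55 down to Ddx54 thus differed by less than the spot noise and have no order among themselves. Ddx56 read 9450 on the MARVELD1 array and 6451 on the empty vector array (0.68), whereas its other probe, dim and more 3′, was not well above background on the MARVELD1 array and gave a bound of -0.51. Ddx47 was 0.62 higher and Ddx18 0.54 higher, at 13448 on the MARVELD1 array against 10115 on the empty vector array. Ddx10, Ddx49 and Ddx24 lay near the median of all genes, with differences of 0.31, 0.22 and 0.20. The second, more 5′ probe of Ddx24 read 400.3 on the MARVELD1 array and 719.6 on the empty vector array (-0.72), and the mean of its probes gave -0.26.

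Of the 16, 13 differed upward, beside 65.5% of all genes, and 3 were on the lower side. Dhx37, a DEAH helicase of small-subunit assembly, had a single probe (chr5:125895282-125895341, minus strand), which read 133.7 on the MARVELD1 array and 329.6 on the empty vector array.
Dhx37 probe: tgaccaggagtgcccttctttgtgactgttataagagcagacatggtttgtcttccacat
Its log2 difference was -1.17, or 2.26-fold lower, the only helicase gene past 2-fold lower by its representing probe. The spot SD under an intensity of 200 was 0.61, so the difference is nearly 2 of these SDs. Ddx52, also with 1 probe, read 139.2 on the MARVELD1 array and 246.5 on the empty vector array (-0.70). Ddx50, a close relative of Ddx21, gave -0.26 by the probe that represented it and 0.38 by its more 3′ probe.

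**Figure D3:**
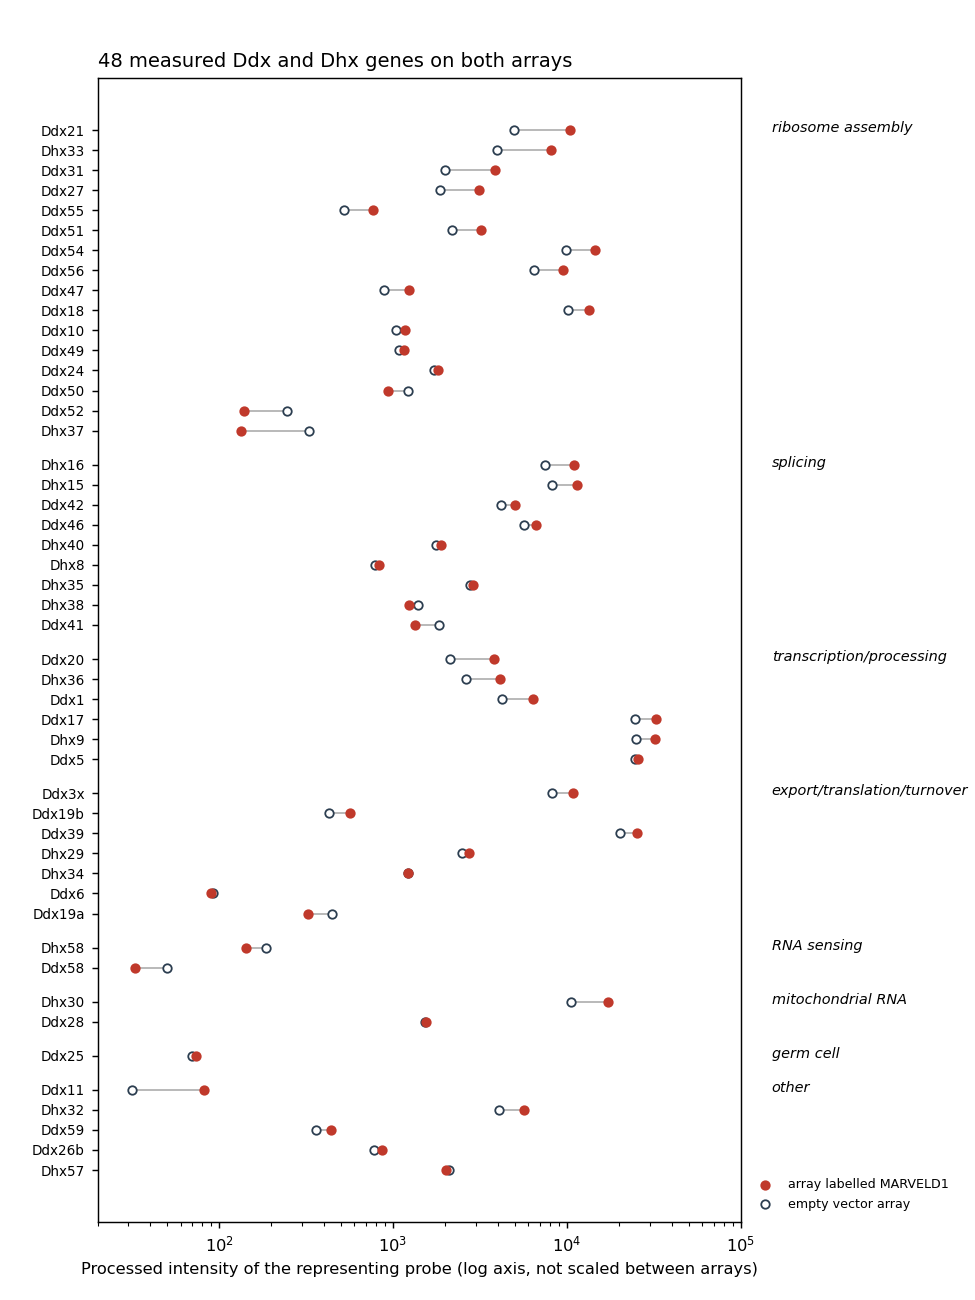
Processed intensity (x axis, log scale, not scaled between arrays) of the representing probe of each of the 48 measured Ddx and Dhx genes on the array labelled MARVELD1 (filled) and the empty vector array (open), grouped by role and ordered by difference within each group. In the ribosome assembly group the filled point lies to the right in 13 of 16 genes. After scaling, the difference was above 0 in the same 13, beside 65.5% of all genes. The filled point of Ddx58 and the open point of Ddx11 were not well above background.

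The splicing helicases lay near genes in general. Of 10 genes, 9 were measured, and 0 were past 2-fold in either direction, beside 5.39% of all genes higher and 3.53% lower. At 1.5-fold 2 were higher, beside 19.4% of all genes. The median was 0.22, beside 0.19 for all genes. Dhx16, which activates the assembled spliceosome, read 10936 on the MARVELD1 array and 7442 on the empty vector array (log2 difference 0.68), with 0.51 from its second probe. Dhx15, which takes the spliceosome apart after splicing, read 11349 and 8180 (0.60). Its second probe shares 40 bases with the first, in capitals below, and gave 0.67, so overlapping probes of the same gene differed by less than the spot SD.
Dhx15 probe 1: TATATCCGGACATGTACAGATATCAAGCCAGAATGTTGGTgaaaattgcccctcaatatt
Dhx15 probe 2: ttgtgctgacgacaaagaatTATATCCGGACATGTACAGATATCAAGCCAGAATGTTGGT
Ddx42 and Ddx46, both of the early spliceosome, gave 0.39 and 0.35 by their representing probes. A second probe of Ddx46 stood at 958.7 on the MARVELD1 array against 503.2 on the empty vector array, a difference of 1.06, and a further one gave 0.60. Dhx40, Dhx8 and Dhx35 gave 0.22, 0.20 and 0.18. Ddx41 was lowest of the group, at 1335 on the MARVELD1 array and 1842 on the empty vector array (-0.34), and Dhx38, which acts between the steps of splicing, read 1236 and 1394 (-0.05).

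All 6 cofactors of transcription and RNA processing differed upward by their representing probes, beside 65.5% of all genes. Their median was 0.63, beside 0.19 for all genes. At 1.5-fold 3 were higher, beside 19.4% of all genes. Past 2-fold there were 0, beside 5.39% higher and 3.53% lower. Ddx5 turned to -0.05 with quantile normalization, -0.12 after loess and -0.04 with normexp, and Ddx1 to -0.24 with the mean of its probes. The other probe of Ddx1 gave -1.22, and the other probes of Dhx36 gave -1.06 and 0.64. Ddx20, the Gemin3 subunit of the SMN complex that assembles spliceosomal snRNPs, read 3816 on the MARVELD1 array and 2132 on the empty vector array (log2 difference 0.97, or 1.96-fold). Dhx36, which unwinds G-quadruplexes, read 4136 and 2639 by its 3′ probe (0.78), and Ddx1, a partner of the tRNA ligase complex, 6415 and 4217 by its 3′ probe (0.73). The coregulator genes Ddx17 and Ddx5 gave 0.53 and 0.19. Ddx17 read 32613 on the MARVELD1 array against 24603 on the empty vector array, and Ddx5, its close paralog, 25468 against 24426. Dhx9, known as RNA helicase A, read 32184 on the MARVELD1 array and 24830.2 on the empty vector array (0.50).

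Among helicases of export, translation and turnover none of the 7 measured genes reached 1.5-fold (0 higher, 0 lower), beside 19.4% and 8.97% of all genes. Their median was 0.26, beside 0.19 for all genes. Ddx3x, a factor of translation initiation on structured leaders, gave 0.54 at 10863 on the MARVELD1 array against 8169 on the empty vector array by its most 3′ probe, and -0.35 by the next, at 1525 against 2116. The mRNA export helicase Ddx19b read 567.2 on the MARVELD1 array and 430.2 on the empty vector array (0.53), and Ddx39 was 0.45 higher, while Ddx19a, the paralog of Ddx19b, read 323.8 on the MARVELD1 array and 447.2 on the empty vector array (-0.34), with -0.64 from its second probe. Dhx29, a translation initiation factor, gave 0.26. Dhx34, which takes part in nonsense-mediated decay, had a pair of probes that share 50 bases, and both gave 0.12. Its remaining probe, more 5′, read 614.9 on the MARVELD1 array and 839.2 on the empty vector array (-0.32).
Dhx34 probe 1: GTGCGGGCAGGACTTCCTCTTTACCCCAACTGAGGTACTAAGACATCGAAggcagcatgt
Dhx34 probe 2: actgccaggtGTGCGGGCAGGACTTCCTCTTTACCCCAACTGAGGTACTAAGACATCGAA
The decapping activator gene Ddx6 had 1 probe, which read 90.0 on the MARVELD1 array and 92.5 on the empty vector array (0.09), and its difference was below 0 under each other scaling, at -0.02 with the array median.

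The RNA sensors were dim on both arrays. Ddx58, which encodes the viral RNA receptor RIG-I, had 4 probes, of which 0 were well above background on the array labelled MARVELD1 and 1 on the empty vector array. That probe read 32.8 on the MARVELD1 array and 49.9 on the empty vector array, which allows only the statement that it was at least 1.27-fold lower. Dhx58, which encodes the related LGP2, read 143.5 on the MARVELD1 array and 185.5 on the empty vector array (log2 difference -0.24). Ifih1, the third receptor of this family, carries no Ddx or Dhx name, and it read 112.1 on the MARVELD1 array against 207.4 on the empty vector array (-0.76). Of 15 genes of the RNA sensing pathway on the array, 13 were measured. At 2-fold 0 were higher, beside 5.39% of all genes, and 3 were lower, beside 3.53%. The 3 were the interferon-induced Ifit1, Isg15 and Ifit3. The signalling genes downstream of the receptors, Mavs and Irf3, gave 0.55 and 0.53. The median of the 13 was 0.13, beside 0.19 for all genes.

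The remaining helicases were few in each group. Dhx30, which acts on mitochondrial RNA and ribosomes, read 17134 on the MARVELD1 array and 10504 on the empty vector array (log2 difference 0.83), and Ddx28, of mitochondrial ribosome assembly, 1556 and 1521.7 (0.16). Ddx25, a testis helicase, read 73.6 on the MARVELD1 array and 70.1 on the empty vector array (0.20). Ddx11, a DNA helicase of sister chromatid cohesion despite its name, was well above background on the MARVELD1 array only, at 82.0 against 31.6 on the empty vector array, or at least 2.45-fold higher. The bound was 1.29 on the log2 scale, and 0.48 with normexp background correction. Dhx32 was 0.61 higher, at 5652 on the MARVELD1 array against 4055 on the empty vector array. Ddx59 gave 0.40. Ddx26b, now named Ints6l and a relative of an Integrator subunit, read 861.9 on the MARVELD1 array and 780.9 on the empty vector array (0.27), and Dhx57 2018 and 2095 (0.07).

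Among related helicases under other names, all 19 on the array were measured. At 2-fold 0 were higher and 2 lower, beside 5.39% and 3.53% of all genes, and at 1.5-fold 6 were higher and 4 lower, beside 19.4% and 8.97%. Their median was 0.27, beside 0.19 for all genes. Eif4a1, the DEAD box helicase of cap-dependent translation initiation, read 91341 on the MARVELD1 array and 51153 on the empty vector array (log2 difference 0.96, or 1.95-fold). Its paralog Eif4a2 gave 0.19, and Eif4a3 of the exon junction complex 0.58. Snrnp200, the spliceosomal helicase that unwinds the U4/U6 pair, gave 0.76, and Ddx39b, listed in the files under an older name and paralog of Ddx39, 0.73. On the lower side were Tdrd9, a germ cell helicase, at 78.3 on the MARVELD1 array and 183.6 on the empty vector array (-1.10), and D1Pas1, the testis paralog of Ddx3x, which was at least 2.38-fold lower.

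Probes of the same helicase gene often differed, about as much as in genes in general. The more 5′ probe was usually the lower, in helicase genes and in all genes. Of 20 helicase genes with several probes measured on both arrays, 9 had probes in opposite directions, beside 45.9% of all 5486 such genes. The SD between probes of a gene was 0.56 over these 20 genes, beside 0.54 for all. In 18 helicase genes the most 5′ and the most 3′ measured probe lay at least 500 bases apart on the genome, introns included, and did not overlap. In 16 of the 18 the 5′ probe gave the lower difference, beside 67.6% of 4639 genes, and in 2 it was lower by 1 or more on the log2 scale, beside 13.1%. The median of 5′ minus 3′ was -0.42 for helicase genes and -0.28 for all genes. In 4 of the 18 the 5′ probe was annotated to a sequence other than a RefSeq transcript. With probes of RefSeq transcripts only, the medians were closer, at -0.41 for 14 helicase genes and -0.34 for all 3427 genes. The 3′ probes of the 18 genes had a median difference of 0.54, beside 0.25 for the 3′ probes of all genes. Their 5′ probes had a median of 0.17, beside -0.01 for the 5′ probes of all genes.

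Ddx21 shows this pattern with 3 probes. The 3′ probe gave 1.18. The middle probe read 574.8 on the MARVELD1 array and 422.1 on the empty vector array (0.57), and the 5′ probe 101.5 and 151.7 (-0.45). The 5′ value, 18.2 kb from the 3′ probe, lies within the spot SD of 0.61 for such dim probes, so a change of sign is not shown. Dhx33 gave 1.15 and 0.68 from its 3′ and middle probes, and its 5′ probe was well above background on the empty vector array only, at 7.83 on the MARVELD1 array against 41.03 on the empty vector array, a bound of -0.06. Ddx1 had the widest gap: its 3′ probe gave 0.73, and its 5′ probe, 23.6 kb away, read 93.3 on the MARVELD1 array and 237.3 on the empty vector array (-1.22). In Dhx36 the middle probe read 100.5 on the MARVELD1 array and 228.7 on the empty vector array (-1.06). It lay between a 3′ probe at 0.78 and a 5′ probe at 0.64, so that gene does not follow a gradient. The 5′ probes of Dhx36 and Dhx33, unlike the other probes of these genes, were annotated to sequences other than RefSeq transcripts. The exceptions to the order were Ddx46, with 0.46 for 5′ minus 3′, and Ddx42, with 0.03.

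Probe brightness moved with position. The 5′ probe was the dimmer on the MARVELD1 array in 14 of the 18 genes, and 5′ probes had median intensities of 252.8 on the MARVELD1 array and 257.2 on the empty vector array, against 3621 and 2249 for 3′ probes. The part of brightness or of RNA quality in the gap was not tested. Where both probes had to read at least 100 on both arrays, 13 of 14 genes had the lower value at the 5′ probe. The share of all genes was taken only without this minimum, and was 67.6%. Under the minimum the median of 5′ minus 3′ was -0.47, beside -0.32 for all 3413 genes under it and -0.28 for all genes without it. Since the probe that represents a gene is its brightest, and several single-probe genes such as Dhx37 and Ddx52 have no second position to compare, the family medians above hold for these probes. With the mean of all probes, Ddx21 gave 0.43, Dhx33 0.59, Dhx36 0.12 and Ddx1 -0.24.

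**Figure D4:**
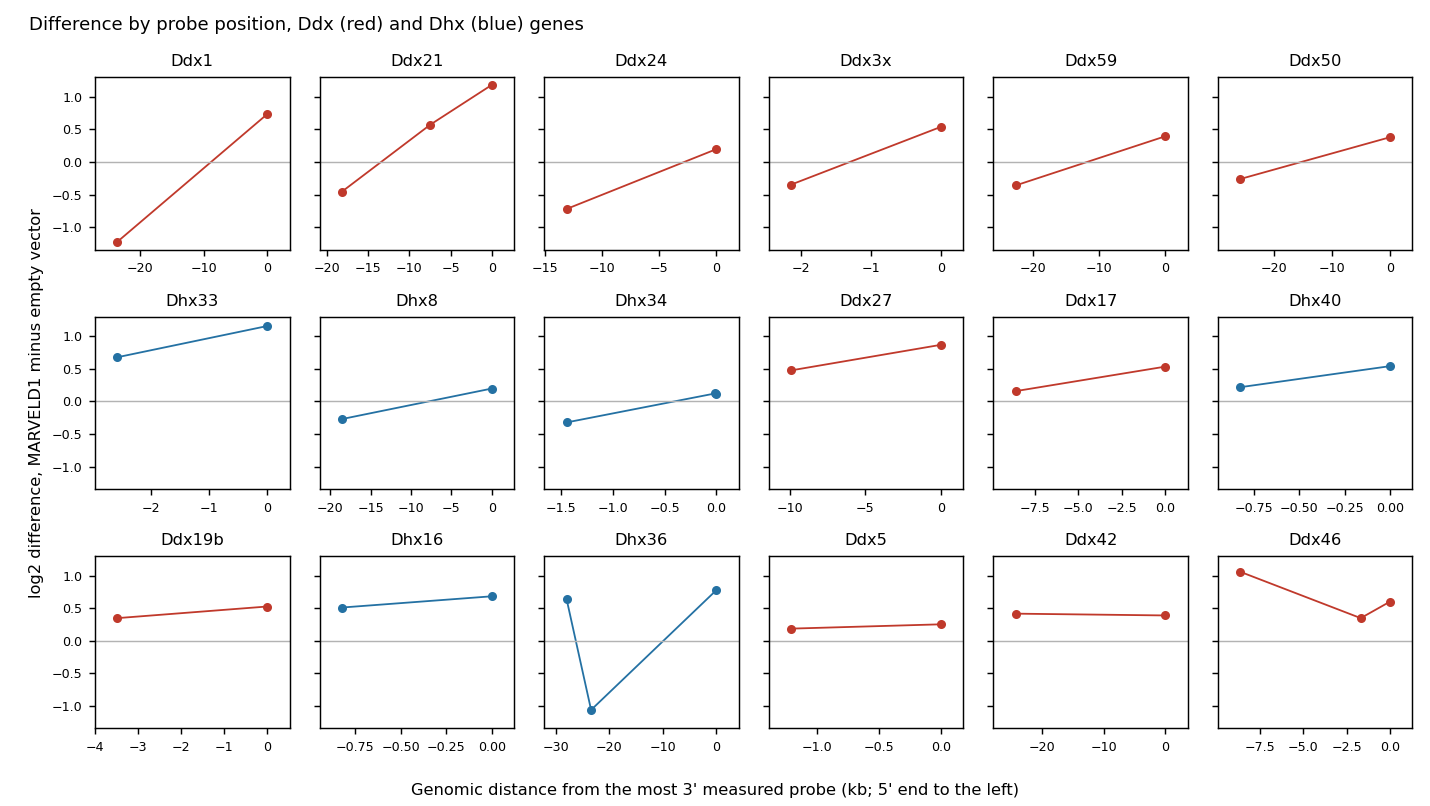
Log2 difference, MARVELD1 minus empty vector (y axis), of each probe measured on both arrays against its genomic distance from the most 3′ measured probe in kb (x axis, 5′ to the left), for 18 Ddx (red) and Dhx (blue) genes ordered by the gap. The left end lies lower in 16 of the 18 panels, from -1.95 in Ddx1 to -0.07 in Ddx5, and not in Ddx42 and Ddx46.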

How the data were processed

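The deposited scanner files hold the fluorescence intensity of each spot, background-subtracted and detrended within each array by Agilent Feature Extraction 9.5.3.1, per the file headers. They were not scaled between arrays. The authors' deposited table of normalized intensity was used only as an alternative: its values are the processed intensity over a constant (123.3 for MARVELD1 and 124.6 for empty vector), and other steps behind it are not stated in the labels.

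Control spots and outlier spots (223 on the MARVELD1 array, 116 on the empty vector array) were left out, and 0 spots were saturated. Log2 intensities minus the 75th percentile of the array were averaged over spots of a probe. Background genes were named through the RefSeq genes of GRCm38.p6, without coordinates: of 41084 probes, 24802 matched by accession, 6030 by symbol and 1808 by an older name, and 8444 stayed unnamed. Helicases were named by the files. Each gene took the value of its brightest probe (mean of both arrays) and was kept if that probe was well above background on at least 1 array.

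Where 1 array was not well above background, the value is a bound. The dim array is then taken at its lowest well-measured intensity (36.0 on the MARVELD1 array, 36.5 on the empty vector array), or at the probe's reading if that is higher. It is set after scaling and written "at least". The number of arrays, 1 per group, limits precision. The gene computation was tested on simulated data. Python 3.11.15, pandas 2.3.3, R 4.3.3 and limma 3.58.1 were used. Values are printed for the helicases past 2-fold by any measured probe, for the 2 highest and 2 lowest of each role group, for the brightest and dimmest of each family, and for most others. Alternatives were other scalings (array median, quantile, loess), normexp background correction with offset 50, other filters on dim probes, the mean of all probes or the most 3′ probe of a gene, the deposited table, and thresholds of 1.5-fold and 3-fold. The members, role groups, gene lists and alternatives were chosen with earlier results of these data known. The comparison of 5′ and 3′ probes was added after seeing the data.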

Additional observations from a re-analysis of the deposited data

How the results depend on the processing

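No paired analysis was possible because each group has 1 array, and no array could be left out. The number of helicase genes 2-fold or more higher was 4 as reported, beside 5.39% of all genes. It was 1 with quantile normalization (4.03% of all genes), 1 after loess (3.67%) and 1 with normexp (1.86%). In the authors' deposited table, which held 46 of the 48 measured helicase genes, it was 2 (3.07%). When probes of a gene were averaged it was 2 (4.75%). The number 2-fold or more lower was 0 with normexp, beside 2.55% of all genes, in place of 1, beside 3.53%. At 1.5-fold the counts were 17 and 2, beside 19.4% and 8.97% of all genes. At 3-fold they were 0 and 0, beside 1.21% and 1.31%. The Ddx median of 0.42 was 0.32 with the array median, 0.29 with quantile normalization, 0.22 after loess, 0.28 with normexp, 0.31 in the authors' deposited table and 0.28 when probes were averaged. The Dhx median of 0.24 was 0.13 with the array median, 0.11 after loess, 0.13 in the authors' table and 0.38 with the most 3′ probe. Other medians stayed within 0.1, a band chosen after seeing the data, and the 5′ minus 3′ median lay between -0.47 and -0.38 over its alternatives, which were added after seeing the data. Of 334 values of single helicase genes under the alternatives, 324 moved by less than the SD of a single-spot difference of 0.40 and 10 by more. The sign changed in 21 of the 334, over 11 genes, 4 times with a move beyond that SD: Ddx1 to -0.24 and Ddx24 to -0.26 when probes were averaged, and Ddx56 to -0.51 and Ddx50 to 0.38 with the most 3′ probe. No gene past 2-fold by its representing probe was among the 11. Dim probes, with a spot SD of 0.61, limit Dhx37, Ddx52, Ddx6, Ddx11 and the RNA sensors.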
